A study of Mus musculus with 23 samples.

Results

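Insulin-like growth factor 1 (Igf1), the IGF binding proteins Igfbp2 to Igfbp7 and Igfals form a set of 8 genes that bring IGF1 to its receptor or hold it back. They were taken by name from a table of estimated read counts for 45706 mouse genes, and all 8 were found there. RNA had been sequenced from dissected hippocampus of female mice that either carried the insulin gene Ins2 (Ins2+/+, here WT, n = 12) or lacked it (Ins2-/-, here KO, n = 11). No other allele, treatment, strain or age is given in the labels, and nothing in them says how the Ins2 allele was made or that each library came from a separate animal, so p-values measure the spread between these libraries. The series title names brain insulin production, learning and memory as its subject.

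IGF1 is a peptide related to insulin that acts through the receptor Igf1r. Most of it is carried by binding proteins, which prolong its life, move it between compartments or keep it from the receptor, and Igfals locks ligand and binding protein into a large complex in blood. In and around the brain, neurons and microglia are known sources of IGF1, choroid plexus and meninges make Igfbp2 and the related ligand Igf2, and Igfbp7 is abundant in blood vessel walls.

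Library totals ran from 13792274 to 22953261 counts. Ins2 had 0 counts in the 11 KO libraries and 26 counts in the WT libraries. Of these, 18 were in WT library 17, and 5 of the 12 WT libraries also had 0, so at this depth a count of 0 says little about the label of any single KO library. Ttr, which encodes the transport protein transthyretin and is the defining transcript of choroid plexus, split the libraries into separate clusters. Its count was 7 to 1173 in 18 libraries and 43446 to 296745 in the other 5, which were WT 14, WT 17, KO 2, KO 6 and KO 12. A limit of 10000 Ttr counts fell in this gap. The resulting classes describe the dissected material and are not groups of the study. KO library 8 stood apart in another way. Its 12 hypothalamic marker genes summed to 1573 CPM (counts scaled to library size, with TMM factors between libraries), against 1.296 to 8.60 CPM elsewhere. Its 10 hippocampal marker genes summed to 334 CPM, against 993 to 1576 CPM in the other 22 libraries. The tissue label therefore sits poorly with KO library 8, and results that turn on it are given with and without it.

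The genes lie on 6 chromosomes (GRCm38, GENCODE M21). Igf1 (ENSMUSG00000020053) is at chr10:87858265-87937042 on the plus strand. Igfbp2 (ENSMUSG00000039323) at chr1:72824503-72852474, plus strand, and Igfbp5 (ENSMUSG00000026185) at chr1:72857932-72874884, minus strand, are neighbours whose ends face each other across 5457 bases. Igfbp3 (ENSMUSG00000020427) is at chr11:7206086-7213923, minus strand, 3539 bases from Igfbp1. Igfbp4 (ENSMUSG00000017493) is at chr11:99041244-99054392, plus strand, and Igfbp6 (ENSMUSG00000023046) at chr15:102144362-102149511, plus strand. Igfbp7 (ENSMUSG00000036256) is at chr5:77349240-77408041, minus strand, and Igfals (ENSMUSG00000046070) at chr17:24865997-24882010, plus strand. Exons of Igfbp7 overlap those of Polr2b on the opposite strand over 85 bases, and the authors' use of strand in counting is not given in the sources used here, so a part of the Igfbp7 counts is uncertain.

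Among the 7 members that could be tested, Igfbp2 and Igfbp7 were the pair called higher in the libraries rich in Ttr. Igfbp5 is the close neighbour of Igfbp2 that did not pass that test. Their promoters are shown for that reason, from RefSeq on GRCm38.p6, as the bases before the annotated start with any base of an exon left out. Windows were found for 7 of the 8 genes. Capitals mark GC boxes (GGGCGG, read on both strands), a motif bound by Sp-family transcription factors.

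Igfbp2, chr1:72824230-72824479, plus strand: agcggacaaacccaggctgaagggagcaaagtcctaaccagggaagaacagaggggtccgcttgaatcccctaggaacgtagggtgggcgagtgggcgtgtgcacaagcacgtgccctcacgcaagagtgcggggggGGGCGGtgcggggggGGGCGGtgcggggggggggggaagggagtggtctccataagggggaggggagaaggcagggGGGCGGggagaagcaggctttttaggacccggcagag
Igfbp7, chr5:77408046-77408295, minus strand: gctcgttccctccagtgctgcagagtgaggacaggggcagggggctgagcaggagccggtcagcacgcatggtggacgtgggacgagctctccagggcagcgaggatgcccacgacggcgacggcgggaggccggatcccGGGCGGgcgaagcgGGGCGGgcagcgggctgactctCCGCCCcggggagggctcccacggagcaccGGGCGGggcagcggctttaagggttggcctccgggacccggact
Igfbp5, chr1:72874885-72875115, minus strand: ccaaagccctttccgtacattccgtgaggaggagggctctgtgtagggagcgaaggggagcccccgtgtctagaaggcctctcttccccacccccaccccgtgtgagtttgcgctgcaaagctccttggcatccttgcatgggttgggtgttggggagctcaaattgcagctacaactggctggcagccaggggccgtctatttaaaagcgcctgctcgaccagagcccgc

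The Igfbp2 window shown, that of the more upstream start, held 3 GC boxes and 67.2% G or C. RefSeq gives Igfbp2 another start, whose window (chr1:72825137-72825321, 185 bases after exon bases were left out) held 0 GC boxes and 60% G or C, close to Igfbp5. The Igfbp7 window held 4 GC boxes and 74% G or C. The Igfbp5 window held 0 GC boxes and 60.6% G or C. A GC box occurs in 32.7% of the 32851 promoter windows of the same length limit. TATA boxes (TATAAA, in 12.4% of windows), CCAAT boxes (CCAAT, 33.8%) and sites of the OTX homeodomain type (TAATCC, 6.25%), each read on both strands, were not found in these windows. Among the other members, Igfals had 1 GC box, Igfbp4 had 1 TATA box and Igfbp6 had 1 TATA box and 2 CCAAT boxes. Their G or C content was 73.2% for Igfbp3 and 69.2% for Igfbp4, each with 0 GC boxes. It was 59.8% for Igfals and 49.6% for Igfbp6. These are matches of letters in a window and nothing was measured at them.

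Scaled per kilobase of exon, the binding proteins differed widely in level in the 18 libraries with a Ttr count under 10000. Igfbp5 led with 34.7 ± 4.62 CPM per kb (SD, n = 18), followed by Igfbp4 with 15.8 ± 4.07 CPM per kb. Igfbp5 was the higher of these in 18 of 18 libraries, and Igfbp4 exceeded the next gene, Igfbp2, in 16. Igfbp2 at 8.83 ± 2.95 CPM per kb and Igfbp6 at 8.23 ± 2.25 CPM per kb could not be ranked beyond their spread, with Igfbp2 ahead in 11 of 18 libraries. The same held for Igfbp3 at 5.27 ± 0.985 CPM per kb and Igfbp7 at 4.72 ± 1.33 CPM per kb, with Igfbp3 ahead in 12 of 18. Igf1 itself was at 0.818 ± 0.157 CPM per kb, below all 6 binding proteins, and Igfals was close to absent at 0.0103 CPM per kb.

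**Figure D1:**
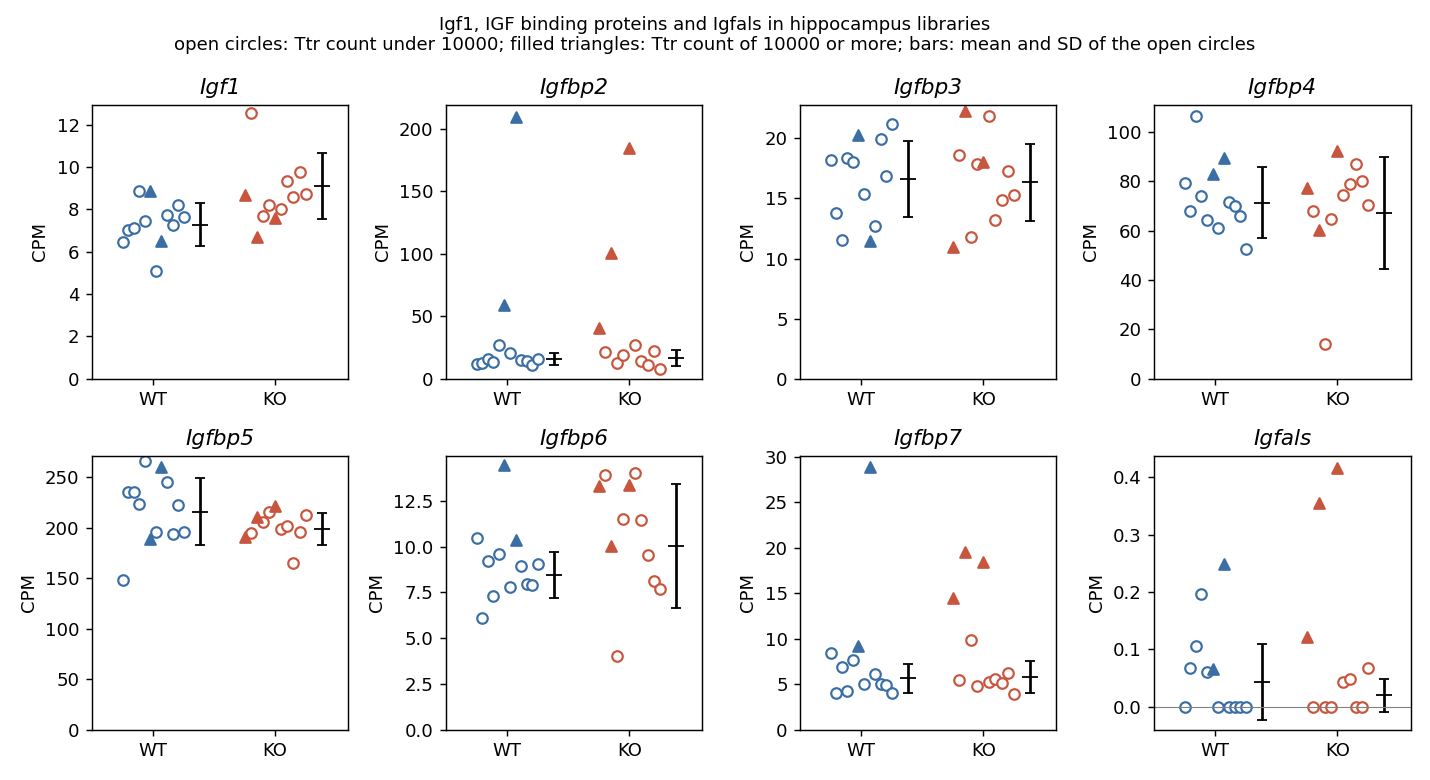
CPM of each gene (vertical axes, TMM-scaled, each panel with its own range) in the 12 WT and 11 KO libraries; circles are libraries with a Ttr count under 10000, triangles those with 10000 or more, and bars are the mean and SD of the circles. The triangles lie above all circles for Igfbp2 and 4 of 5 do so for Igfbp7, while WT and KO points overlap in every panel.

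The first comparison asked whether the IGF genes differ between KO and WT hippocampus. None of the 7 members with enough counts to be tested passed the threshold (edgeR quasi-likelihood test, Benjamini-Hochberg adjusted p below 0.05 over 15828 genes). Across all genes the test called 2, which is 0.0126% of those tested. Igf1 was the member nearest to the threshold, with a value 1.19-fold higher in KO. At an unadjusted p below 0.05, Igf1 was the single member past the limit, against 909 of all genes (5.74%), 539 of them (3.41%) higher in KO. The median log2 fold change of the 7 members was 0.19, that of all genes 0.003. DESeq2 called 4 genes of all those tested and limma voom 4, with 0 members among them.

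Igf1, the ligand, ran from 5.07 to 8.89 CPM in WT, with a median of 7.35, and from 6.70 to 12.6 CPM in KO, with a median of 8.59. The groups overlapped: 3 of 11 KO libraries (KO 4 at 12.6, KO 21 at 9.77 and KO 16 at 9.32 CPM) were above every WT library, and 10 of 11 were above the WT median. The means were 7.36 ± 1.07 CPM (SD, n = 12) and 8.72 ± 1.53 CPM (SD, n = 11). The log2 fold change was 0.25 (SE 0.096, edgeR unadjusted p = 0.017, adjusted p = 0.781), which ranked 275 among 15828 genes. Leaving out each library in turn gave 0.18 (without KO library 4) to 0.27, with unadjusted p from 0.00849 to 0.0452 and no call.

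In the 18 libraries with a Ttr count under 10000 (10 WT, 8 KO) the Igf1 difference was larger in value and again not called. Igf1 was at 5.07 to 8.89 CPM in WT (median 7.35) and at 7.68 to 12.6 CPM in KO (median 8.66). All 8 KO libraries were above the WT median, and 3 of 8 were above the highest WT library. The log2 fold change was 0.32 (SE 0.106, fold 1.25, edgeR unadjusted p = 0.00744, adjusted p = 0.538). In this comparison 1 of 15879 genes was called (0.0063%), and 1451 (9.14%) had an unadjusted p below 0.05, of which 841 (5.3% of those tested) were higher in KO. Without KO library 8 the Igf1 value was 0.35 (adjusted p = 0.506), and without KO library 4 it was 0.25.

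The 5 libraries rich in Ttr showed no such order for Igf1. WT libraries 14 and 17 held 8.89 and 6.52 CPM, and KO libraries 2, 6 and 12 held 8.67, 6.70 and 7.61 CPM. A test of the difference between both genotype effects, chosen after the data were seen, gave an interaction of -0.33 on the log2 scale (SE 0.232, edgeR unadjusted p = 0.166, adjusted p = 0.985), with 0 of 15828 genes called. The known cellular sources of IGF1 were compared through their markers. The 10 microglial genes summed to 354 to 502 CPM in WT and 326 to 491 CPM in KO. The 9 interneuron genes summed to 815 to 1188 CPM in WT and 930 to 1146 CPM in KO among the libraries low in Ttr, with 6 of 9 genes higher in value in KO. Among these KO libraries, the 3 highest in Igf1 (KO 4, KO 21 and KO 16) also had the 3 highest interneuron sums, 1146, 1075 and 1120 CPM. The WT libraries low in Ttr did not show this order. WT library 15 had the highest sum of all and the lowest Igf1. WT libraries 10 and 23, the highest of them in Igf1 (8.89 and 8.19 CPM), had interneuron sums of 962 and 965 CPM. WT library 5, with a sum of 1031 CPM, held 7.13 CPM of Igf1. The log2 values of that list ran from -0.19 (Cck) to 0.66 (Vip), with a median of 0.14, and Vip was the 1 gene of 9 with an unadjusted p below 0.05 (edgeR adjusted p = 0.336). Between genotypes, 0 genes of either list were called. Meningeal genes had a median sum of 86.2 CPM in KO and 47.8 CPM in WT in the same libraries, with 8 of 8 genes higher in value and 0 called. The 10 hippocampal genes had a median sum of 1375 CPM in WT and 1191 CPM in KO there, KO library 8 left out. With that library in, 9 of the 10 were lower in value in KO (median log2 value -0.28) and 0 were called. The part of any of these in the Igf1 value was not tested, and in bulk tissue fewer cells of a type cannot be told apart from less RNA per cell.

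Among the binding proteins, Igfbp5 and Igfbp6 had the next smallest p-values, in opposite directions. Igfbp5, which binds both IGFs and the extracellular matrix, ran from 148 to 265 CPM in WT (median 223) and from 165 to 221 CPM in KO (median 201). No KO library was above the WT median. The means were 217 ± 33.97 CPM (SD, n = 12) and 201 ± 15.3 CPM (SD, n = 11), and the log2 fold change was -0.11 (SE 0.0757, edgeR adjusted p = 0.781). It was -0.13 (SE 0.0886, adjusted p = 0.62) in the libraries low in Ttr, and leaving out single libraries there moved it from -0.17 (WT 1) to -0.08 (WT 11), never called.

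Igfbp6, which prefers Igf2 over Igf1 as its ligand, ran from 6.11 to 14.5 CPM in WT (median 8.997) and from 4.02 to 14.04 CPM in KO (median 11.5). KO library 8 was the lowest of all, and 8 of 11 KO libraries were above the WT median. Its log2 difference was 0.23 (SE 0.162, edgeR adjusted p = 0.781) in the full set and 0.25 (SE 0.178, adjusted p = 0.626) in those low in Ttr. Without KO library 8 these became 0.32 (unadjusted p = 0.0203, adjusted p = 0.967) and 0.37 (unadjusted p = 0.00822, adjusted p = 0.524), and without KO library 13 they were 0.18 and 0.16 (edgeR unadjusted p = 0.294 and 0.372). Among all libraries low in Ttr, KO library 8 included, 4 of the 8 KO libraries, at 11.5 to 14.04 CPM, were above the highest WT library at 10.5 CPM.

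Igfbp3, the main carrier of IGF1 in blood, did not separate the genotypes. It ran from 11.4 to 21.2 CPM in WT (median 17.4) and from 10.9 to 22.2 CPM in KO (median 17.3). Its log2 values were 0.01 (SE 0.128, edgeR adjusted p = 0.987) in the full set and -0.03 (SE 0.128, adjusted p = 0.954) in the libraries low in Ttr, where it was 0.03 without KO library 8. Igfbp4, a binding protein cleaved by the protease Pappa, ran from 52.8 to 107 CPM in WT and from 14.3 to 92.4 CPM in KO. The low end was KO library 8 alone, and the other 10 KO libraries held at least 60.4 CPM. The log2 fold change of Igfbp4 was -0.08 (SE 0.182, edgeR adjusted p = 0.92), and 0.03 without KO library 8. In the libraries low in Ttr these values were -0.09 and 0.07.

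For Igfbp2 and Igfbp7 the genotype value depended on which libraries rich in Ttr were present, and for Igfbp2 also on the method (1.09 with DESeq2 over all libraries). Igfbp2, a binding protein of both IGFs, ran from 11.4 to 209 CPM in WT and from 7.71 to 185 CPM in KO. Its log2 fold change was 0.23 with a standard error of 0.608 (edgeR adjusted p = 0.928), and it was -0.37 when KO library 12 was left out and 1.09 when WT library 17 was. In the libraries low in Ttr the error fell to 0.216 and the value was 0.08 (adjusted p = 0.904), or 0.28 with limma voom. Igfbp7, which binds IGFs weakly and is found in vessel walls, went from 0.19 (SE 0.352, adjusted p = 0.901) to 0.03 (SE 0.175, adjusted p = 0.959) in the same way, and to -0.11 there without KO library 8. Over all libraries the Igfbp7 value was 0.0022 when KO library 6 was left out and 0.60 (edgeR unadjusted p = 0.0426, adjusted p = 0.631) when WT library 17 was. The median over the 7 members in the libraries low in Ttr was 0.03, against -0.004 for all genes.

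Igfals, which encodes the acid-labile subunit, was too low for the count test, with 30 counts over 23 libraries. WT libraries held 12 of these in 6 libraries and KO libraries 18 in 6, and 11 libraries were at 0. A count of 0 allows up to 3 counts, or 0.131 to 0.218 CPM depending on the library, and this covers counting error only. On the log2(CPM + 0.5) scale the KO mean was 0.06 above the WT mean (permutation test, two-sided, 100000 resamples, p = 0.585), a difference not detectable at this depth. In the libraries low in Ttr the order was the other way, with means of 0.0199 CPM in KO and 0.0429 CPM in WT, and both lie under the level that 3 counts would give.

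**Figure D2:**
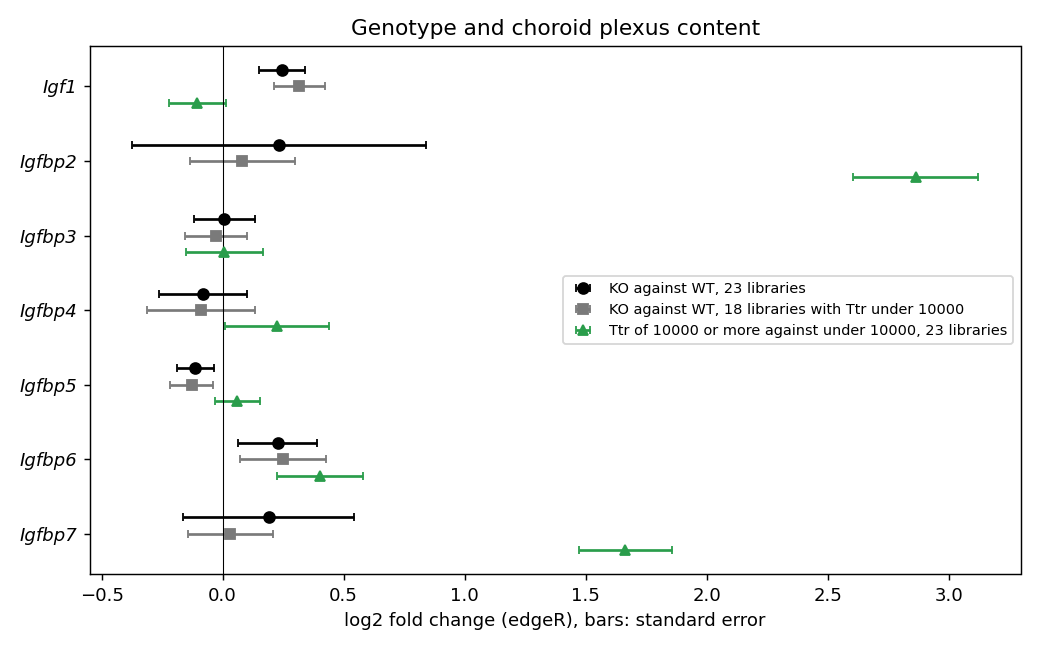
Log2 fold changes (horizontal axis, edgeR) of the 7 tested genes in 3 comparisons, with the standard error as bars. Igfbp2 at 2.86 and Igfbp7 at 1.66 stand clear of 0 in the comparison by Ttr class, and the genotype values run from -0.13 to 0.32.

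The next comparison asked which members follow choroid plexus RNA, by setting the 5 libraries with a Ttr count of 10000 or more against the other 18, with genotype as a covariate. Igfbp2 and Igfbp7 rose, 7.28-fold and 3.17-fold. The other 5 tested members were not called, with log2 values between -0.10 and 0.40. So 2 of 7 tested members were called, against 10.4% of all 15828 genes (1642 genes). The 1212 genes called higher were 7.66% of those tested and the 430 called lower 2.72%. The median log2 value was 0.23 over the 7 members and -0.02 over all genes.

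Igfbp2 was at 7.71 to 27.0 CPM in the 18 libraries low in Ttr (median 14.9, mean 16.3 ± 5.44, SD, n = 18). In the 5 others it was at 41.0 CPM (KO 2), 59.4 CPM (WT 14), 100 CPM (KO 6), 185 CPM (KO 12) and 209 CPM (WT 17). The classes did not overlap, and the order of the 5 libraries followed their Ttr counts except that KO 2, with 50912 Ttr counts, was below WT 14, with 43446. The log2 difference was 2.86 (SE 0.259, edgeR adjusted p = 4.05e-08), rank 44 of all genes by p. It was called in 23 of 23 fits without 1 library, from 2.49 without WT library 17 to 3.08 without KO library 2.

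The excess of Igfbp2 over its mean in the libraries low in Ttr, divided by Ttr, was 7.95 to 14.9 CPM of Igfbp2 for each 1000 CPM of Ttr, while Ttr itself ran from 2881 to 18429 CPM. Igfbp7 had an excess of 1.03 to 2.82 CPM and the ligand Igf2 one of 8.69 to 57.5 CPM for each 1000 CPM of Ttr.

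Igfbp7 was at 3.96 to 9.90 CPM in the libraries low in Ttr (median 5.22, mean 5.71 ± 1.61, SD, n = 18), with KO library 8 the highest. In the libraries rich in Ttr it was at 9.22 CPM (WT 14), 14.5 CPM (KO 2), 18.4 CPM (KO 12), 19.6 CPM (KO 6) and 28.9 CPM (WT 17). The classes overlapped through WT library 14 and KO library 8, and 4 of the 5 were above every other library. The log2 difference was 1.66 (SE 0.193, edgeR adjusted p = 1.75e-06), and it was called in 23 of 23 fits without 1 library, from 1.38 to 1.85.

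Igfbp6 came nearest among the members not called, at 12.3 ± 1.98 CPM (SD, n = 5) against 9.15 ± 2.50 CPM (SD, n = 18), a log2 value of 0.40 (SE 0.176, edgeR adjusted p = 0.167). All 5 libraries rich in Ttr were above the median of the rest, and 1 was above the highest of them. Igfbp4 (0.23, adjusted p = 0.604), Igfbp5 (0.06, adjusted p = 0.781) and Igfbp3 (0.01, adjusted p = 0.986) had smaller values. Igf1 was at 7.68 ± 1.09 CPM (SD, n = 5) against 8.10 ± 1.56 CPM (SD, n = 18), a log2 value of -0.10 (SE 0.118, adjusted p = 0.676). Of the 30 Igfals counts, 20 were in the 5 libraries rich in Ttr, each of which had at least 1, and 10 were in 7 of the other 18.

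Marker sums of choroid plexus, vessels and meninges ran higher in these libraries, and whether they came from the same tissue was not tested. Leaving out Ttr, whose count defined the classes, the other 15 choroid plexus genes summed to 1820 to 11943 CPM against 166 to 337 CPM. None of them was at 0 in all libraries of a class, and the 10 that were tested were all called higher. The 8 endothelial genes summed to 166 to 202 CPM against 83.0 to 171 CPM (5 of 8 called higher), the 6 mural genes to 166 to 227 CPM against 110 to 171 CPM (2 of 6), and the 8 meningeal genes to 86.6 to 208 CPM against 21.9 to 150 CPM (3 of 8). The 9 interneuron genes, by contrast, summed to 702 to 975 CPM against 815 to 1188 CPM (1 of 9 called lower). The part of vessel wall and meningeal RNA in the Igfbp2 and Igfbp7 values was not tested.

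**Figure D3:**
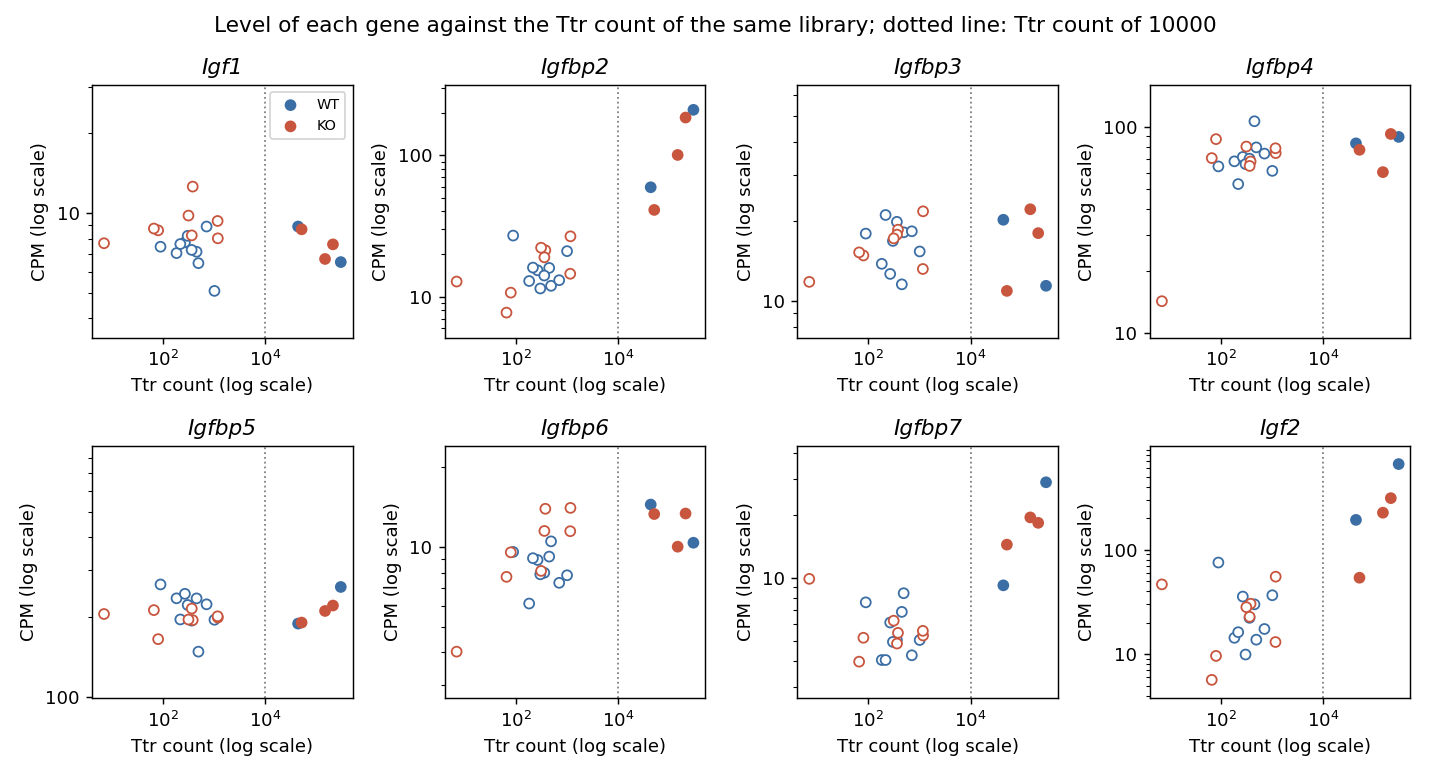
CPM of each gene against the Ttr count of the same library, both on log scales, for 7 members and Igf2; open points have a Ttr count under 10000, filled points 10000 or more, and the dotted line marks 10000. Igfbp2, Igfbp7 and Igf2 climb to the right of the line, and Igfbp4 and Igfbp6 have their lowest value in the library with 7 Ttr counts, KO 8.

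The make-up of the binding protein transcripts shifted with the class. Per kilobase, Igfbp5 supplied 44.9% ± 5.67 (SD, n = 18) of the summed level of Igfbp2 to Igfbp7 in the libraries low in Ttr, and 25.2% ± 5.47 (SD, n = 5) in those rich in it. Igfbp2 went from 11.3% ± 2.98 to 39.5% ± 13.6 and led on average in the latter. Its share was 5.91% to 16.3% in the former class and 22.5% to 53.0% in the latter, with no overlap. Igfbp4 went from 20.2% ± 4.96 to 13.1% ± 4.03, and Igfbp7 from 6.19% ± 2.23 to 10.04% ± 2.39. Because these are shares of a sum, a rise of Igfbp2 lowers the others even where their own levels do not move. The level of Igfbp5 was 34.7 CPM per kb in the former class and 35.7 CPM per kb in the latter.

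**Figure D4:**
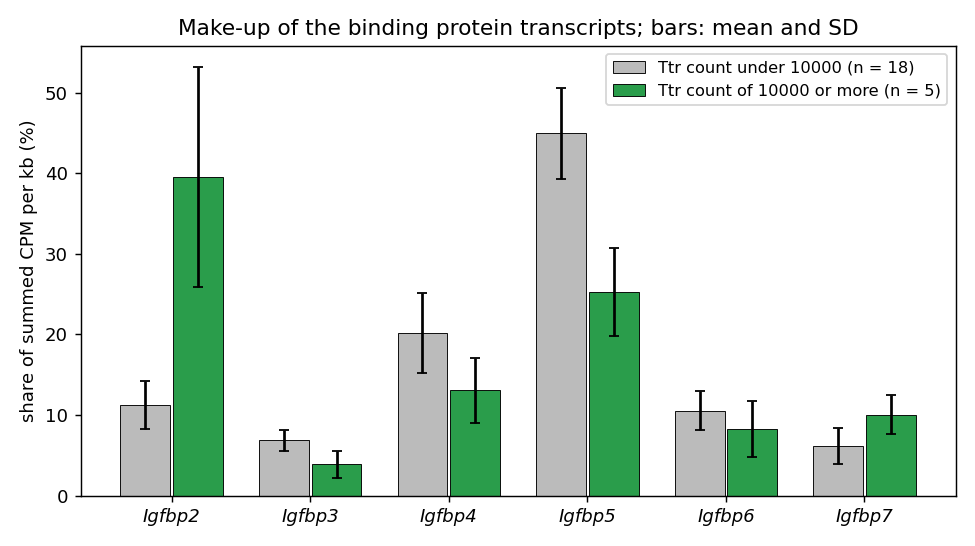
Share of each binding protein in the summed CPM per kb of Igfbp2 to Igfbp7 (vertical axis, percent), as mean and SD over 18 libraries with a Ttr count under 10000 and 5 with 10000 or more. Igfbp5 leads at 44.9% in the former, and Igfbp2 at 39.5% in the latter.

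Within the 18 libraries low in Ttr, the members were tested for a slope on log2 CPM of Ttr, again beside genotype. Igfbp6 was the 1 member of 7 called, with a rise of 0.18 on the log2 scale per doubling of Ttr (SE 0.0474, edgeR adjusted p = 0.0288), against 8.2% of all 15879 genes (1302 genes, of which positive slopes made up 2.92% of those tested and negative slopes 5.28%). In this range 9 of the 11 choroid plexus genes tested, Ttr included, had a positive slope in value. Their median was 0.093, against 9.57e-05 for all genes, and 5 had an edgeR unadjusted p below 0.05. How far Ttr stood for choroid plexus as a whole here was not tested further. Of the 10 genes other than Ttr, 0 were called with a positive slope and 1 with a negative one. By the same test 3 of 9 interneuron and 2 of 10 microglial genes had a called positive slope. The part of these in the Igfbp6 slope was not tested. The slope rested on KO library 8, the library with 7 Ttr counts and hypothalamic markers, whose choroid plexus genes other than Ttr summed to 261 CPM, within the range of the other libraries low in Ttr. Without it the slope of Igfbp6 was 0.09 (adjusted p = 0.327) and 1 gene of 15951 was called. The call was also lost without KO library 13, and it held in 16 of 18 fits that each left out a library. With limma voom, which called 1 gene in all, it was lost too (adjusted p = 0.469).

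Igfbp2, the tested member with the largest difference between the classes, had a slope of 0.10 (SE 0.0683, edgeR adjusted p = 0.392). Leaving out KO library 13 lowered it to 0.06. Leaving out WT library 11 raised it to 0.16, the fit with the smallest adjusted p, 0.0701. Igfbp7 had a slope of -0.10 (SE 0.0483, adjusted p = 0.212), which became 0.01 without KO library 8. Igfbp4 had a slope of 0.20 (SE 0.0724, adjusted p = 0.085), and 0.01 without that library. DESeq2 called the Igfbp4 slope (adjusted p = 0.0126). Igfbp3 (0.07), Igf1 (0.02) and Igfbp5 (-0.02) had smaller slopes. In the range of 7 to 1173 Ttr counts no slope of Igfbp2 or Igfbp7 passed the test, while their levels ranged from 7.71 to 27.0 CPM and from 3.96 to 9.90 CPM.

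The genes whose levels ran most nearly with each member were found by Pearson's r of log2 CPM over 17 libraries, those low in Ttr without KO library 8, among 11802 genes with a mean of at least 5 CPM. These values describe likeness among libraries that also share differences in dissection. For Igfbp2 the nearest were Slc6a20a (r = 0.96), a proline transporter, Ptgds (0.95), the prostaglandin D synthase made by meninges and choroid plexus, and Fmod (0.95), an extracellular matrix proteoglycan. Igfbp7 ran with Reck (0.82), Egfl7 (0.81), an endothelial secreted factor, and Myl9 (0.80), a smooth muscle myosin light chain. For Igf1 they were Pde5a (0.77), Igsf9b (0.70) and Reln (0.70), which encodes reelin. The values for Igf1, at most 0.77, were the lowest leading r together with Igfbp6 (Msmo1, 0.78).

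Igfbp4 ran most closely with Rprml (0.89), Igfbp5 with Cdk19 (0.87) and Igfbp3 with Nr2f2 (0.83), a transcription factor of several neuron types. Over the same 17 libraries the r of pairs of members went from -0.52 (Igfbp3 with Igfbp4) to 0.47 (Igfbp2 with Igfbp6), and that of Igf1 with Igfbp2 was 0.01.

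**Figure D5:**
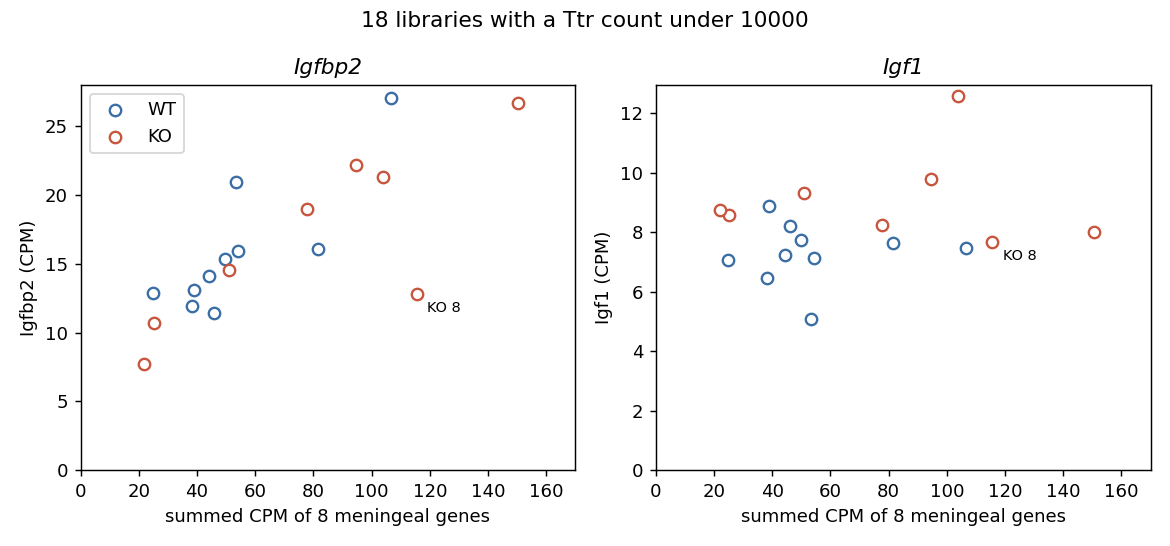
Igfbp2 (left) and Igf1 (right) in CPM against the summed CPM of 8 meningeal genes in the 18 libraries with a Ttr count under 10000. Igfbp2 is lowest (7.71 CPM) in the library with the smallest meningeal sum, 21.9 CPM, and reaches 26.7 CPM in that with the largest, 150 CPM, while KO 8 lies below the other points at its sum; Igf1 shows no such course.

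In single libraries, low and high Igfbp2 went with low and high meningeal sums at the ends of the range, with exceptions between them. KO library 22 had the lowest meningeal sum, 21.9 CPM, and the lowest Igfbp2, 7.71 CPM. KO library 13 had the highest sum, 150 CPM, with 26.7 CPM of Igfbp2, and WT library 11 had 107 CPM of meningeal genes with the highest Igfbp2, 27.0 CPM. Among the exceptions, KO library 8 had a meningeal sum of 115 CPM and 12.8 CPM of Igfbp2. WT library 15 had a sum of 53.4 CPM with 20.97 CPM of Igfbp2, above the 16.05 CPM of WT library 24, whose sum was 81.5 CPM.

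Beside the members, 23 further genes of the IGF axis were followed. Comparing KO with WT, 0 of 19 tested were called over all libraries (7 higher and 12 lower in value) and 0 of 20 in those low in Ttr. Igf2 is at chr7:142650766-142666816, near Ins2 at chr7:142678656-142743381. Its log2 fold change was -0.36 (SE 0.778) over all libraries and -0.045 (SE 0.425) in those low in Ttr. Over all libraries the receptor Igf1r had a log2 fold change of -0.05 (SE 0.0928), the insulin receptor Insr 0.03 (SE 0.0479) and Igf2r, which clears IGF2, -0.03 (SE 0.104). Grb10, an adaptor that restrains both receptors, had 0.60 (SE 0.283, edgeR unadjusted p = 0.0461, adjusted p = 0.781), and 0.08 without KO library 8, which held 206 CPM against 24.1 to 54.2 CPM in WT. In the libraries low in Ttr, 4 of the 20 had an unadjusted p below 0.05, against 9.14% of all genes. They were Grb14 (-0.18), Grb10 (0.78), Stc2 (-0.39), which inhibits Pappa, and Stat5b (0.56), which relays growth hormone signals. Without KO library 8, Grb10 and Stat5b had 0.12 and 0.11, Stc2 had -0.30 (edgeR unadjusted p = 0.0581) and Grb14 had -0.11 (edgeR unadjusted p = 0.03), so of the 4 Grb14 alone was still past the limit.

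By Ttr class, 3 of the 19 tested axis genes were called, all higher in the libraries rich in Ttr, against 7.66% of all genes called higher. Igf2 rose 10.7-fold (log2 3.42, SE 0.412, edgeR adjusted p = 3.22e-06), from 5.66 to 75.2 CPM in the 18 libraries to 53.8 to 659 CPM in the 5, and 4 of the 5 were above every other library. Igf2r rose by 0.37 (SE 0.0997, adjusted p = 0.0155) and the adaptor Shc1 by 0.37 (SE 0.118, adjusted p = 0.0463). Igf2r lost the call without WT library 17 or KO library 12, and Shc1 kept it in 11 of 23 fits without 1 library. Igf1r (0.20, adjusted p = 0.265) and Insr (0.04, adjusted p = 0.8) were not called. On the slope within the libraries low in Ttr, 3 of 20 were called, against 5.28% of all genes called with a negative slope. All fell: Insr by 0.06, Grb10 by 0.26 and Stat5b by 0.20 per doubling of Ttr, and without KO library 8 the calls were gone, with slopes of -0.08, 0.12 and 0.11. Grb10 also lost its call without KO library 16, and Stat5b kept its call in 10 of 18 such fits.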

How the data were processed

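The authors deposited 1 table of expected counts per gene (estimated counts that need not be whole), in which 24.6% to 27.2% of a library's non-zero values carry decimals; the 8 members had whole values. STAR, bcl2fastq and the build mm10 are named in the submitters' processing notes, without versions. The counting program, its use of strand and the annotation release are not given in the sources used here. A stranded mRNA kit was used, per the labels' protocols.

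Columns were matched to samples by library name (0 unmatched). Counts were rounded and tested in edgeR 4.0.16 (R 4.3.3): filterByExpr by genotype, TMM, robust quasi-likelihood F test, Benjamini-Hochberg over all tested genes, adjusted p below 0.05. Standard errors came from the fold change and F. Subsets were refitted with their own filter. CPM values use TMM sizes from all 23 libraries, and levels per kb use merged exon lengths of GENCODE M21. Igfals was tested by permutation with a pseudocount of 0.5. The slope used a prior count of 2. The script was run on simulated counts with planted differences, drawn independently with a common dispersion. That run checks the code and says nothing on shifts shared between genes.

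The alternatives were RLE size factors, no filter, a mean of at least 50 counts, DESeq2 1.42.0, limma 3.58.1 voom with quality weights, a threshold of 0.10, Ttr as covariate, Ttr limits of 5000 and 20000, a pseudocount of 0.05, and each library left out. The interaction test was added after the data were seen. The members, lists and tests were chosen with earlier results of these data known. Named genes are the members, Ttr, Ins2, axis genes of fixed lists (Igf1r, Igf2, Igf2r, Insr and those with the smallest p) and the 3 genes most like each member. Cck and Vip, the ends of the interneuron list, were named after their values were seen.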

Additional observations from a re-analysis of the deposited data

Results flagged for a closer look

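Each member was checked in WT and in KO, which made 16 sets of values. In 5 of them the highest or lowest library lay far from the rest by Dixon's gap criterion. For normally distributed values, chance alone meets it in about 1 set in 20. The sets share libraries and are not independent. All values are CPM in the libraries with a Ttr count under 10000. Igf1 was highest in KO library 4, at 12.6, with the next KO library at 9.77. Igfbp4 was highest in WT library 5, at 107, with the next WT library at 79.6. KO library 8 was the lowest KO library for Igfbp4, at 14.3 with the next at 64.7, and the highest for Igfbp7, at 9.90 with the next at 6.23. Igfbp5 was lowest in KO library 18, at 165, with the next KO library at 195.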

How the results depend on the processing

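Igfbp2 and Igfbp7 were called higher in the libraries rich in Ttr under every alternative and without each library, and no member was called between the genotypes under any of them. In the libraries low in Ttr, other settings gave Igf1 0.32 to 0.33 (adjusted p = 0.0912 to 0.634 by edgeR, DESeq2 or limma) and Igfbp6 0.25 to 0.43 (adjusted p = 0.0924 to 0.665). Igfbp2 ran from 0.08 to 0.28 there, and over all libraries from 0.14 with Ttr as covariate to 1.09 with DESeq2. Of 378 member and axis values under other settings, 356 kept direction and side of the threshold, as did 983 of 1056 without 1 library. The Ttr limits gave the same classes. The cause of the changes below was not tested.

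Genes called between genotypes numbered 2 over all libraries (1 with a mean of at least 50 counts, 4 with DESeq2, 4 with voom, and 2 to 3 without 1 library) and 1 in those low in Ttr (3 at a threshold of 0.10, 21 with DESeq2, 9 with voom, and 1 to 2 without 1 library). The Ttr class called 1642 genes, 2473 with voom, and 914 without KO library 12 (940 without WT library 17) to 2494 without KO library 8. The slope called 1302 genes, 2511 at 0.10, 2026 with DESeq2, 1 with voom, and 1 without KO library 8 (621 without KO 16, 827 without KO 9) to 2078 without KO library 18. Igfbp6 lost its slope call with voom (adjusted p = 0.469, limma) and Igfbp4 gained one at 0.10 (its adjusted p was 0.085), with DESeq2 (0.0126) and without KO library 18. Igf2r gained one at 0.10, with a mean of at least 50 counts, with DESeq2, and without WT library 11 or KO library 22. Without a filter Grb10 and Stat5b lost theirs, as Shc1 did by Ttr class, and Insr lost its slope call with voom.

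Signs turned with voom for Igfbp4 (0.036), Igf2 (0.088, and 0.82 with DESeq2) and Insr (-0.024) between all KO and WT libraries. In those low in Ttr they turned for Igfbp3 (0.073), Igfbp4 (0.063), Igf2 (0.072) and Insr (-0.0505). On the slope they turned for Igf1 (-0.017), Igf2 (0.145, against -0.078 in the main fit), Grb10 (0.061) and Stat5b (0.0600).

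Leaving out 1 library turned these signs, none of them a call except for Grb10 and Stat5b. Between all KO and WT libraries the ranges were -0.37 to 1.09 for Igfbp2, -0.048 to 0.055 for Igfbp3, -0.13 to 0.034 for Igfbp4, -0.93 to 0.80 for Igf2 and -0.106 to 0.044 for Igf2r. In those low in Ttr they were -0.046 to 0.21 for Igfbp2, -0.099 to 0.035 for Igfbp3, -0.148 to 0.066 for Igfbp4, -0.114 to 0.122 for Igfbp7 (for these last 3 genes KO library 8 set the end of the opposite sign), -0.29 to 0.28 for Igf2 and -0.012 to 0.042 for Insr. By Ttr class it was -0.105 to 0.141 for Igfbp3. On the slope they were -0.018 to 0.0395 for Igf1, -0.113 to 0.012 for Igfbp7, -0.187 to 0.0697 for Igf2, -0.29 to 0.118 for Grb10 and -0.22 to 0.11 for Stat5b. For Igfals the range was -0.0026 to 0.102, and a pseudocount of 0.05 gave 0.17 (permutation test, p = 0.714).

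No paired analysis was possible because no replicate number occurs in both genotypes. At 56 to 465 counts per library for Igfbp7 and 104 to 231 for Igf1, counting error limits small differences, and Igfals, at 0 to 7 counts, allows none.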
